A study of Homo sapiens with 12 samples.

Results

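SW1783, a human astrocytoma cell line, was exposed to the medium dose of an Aconitum carmichaeli Debeaux (ACD) water extract, and its transcripts were counted by RNA sequencing. Cells of the medium dose group received the extract at 100 µg/mL for 24 h and cells of the vehicle group received PBS with 2% DMSO, the solvent of the extract stock, for the same time. Each group had 3 libraries, so that 6 of the 12 libraries of the series entered this comparison, and the low (20 µg/mL) and high (500 µg/mL) dose groups, with 3 libraries each, served for direct tests between doses. The libraries were chosen by the dose named in their titles and treatment labels, whereas the protocol text of the labels describes an extract of Poria cocos, a different herb. SW1783 is a single line, so that the values hold for these cells and not for astrocytes in general. Nothing in the labels says that the 3 libraries of a group came from separate cultures, and p-values therefore measure the spread between these libraries, which may be technical.

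ACD root holds aconitine-type alkaloids, which are best known for acting on voltage-gated sodium channels. Many compounds that disturb mitochondria, amino acid supply or protein folding set off the integrated stress response in cultured cells. In that response kinases phosphorylate the initiation factor eIF2α, general translation is lowered, and the transcription factor ATF4 is translated in its place and switches on genes for amino acid uptake and synthesis, tRNA charging and stress signalling. The mitochondrial DNA encodes its own rRNAs, tRNAs and the mRNAs of core respiratory chain subunits, which are transcribed as long precursors and then cut apart.

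The 6 libraries held between 18863863 and 23597743 counts. Replicates differed by more than counting noise in every pair, and vehicle and medium dose libraries lay apart on both leading components of a principal component analysis of the 12 libraries. On the first, with 79.6% of the variance, vehicle lay between -24.4 and -23.8 and the medium dose between -0.0919 and 1.39, and on the second, with 5.6%, vehicle lay between 6.74 and 8.71 and the medium dose between -11.7 and -10.2. Several defining astrocyte markers were near 0 in both groups, with mean normalised counts of 2.79 and 2.80 for GFAP and 2.29 and 2.65 for S100B, and FABP7 was at 0. VIM, CD44, SOX9, GJA1 and CHI3L1, which astrocytoma cells also express, were abundant, and so were the mesenchymal genes COL1A1, COL1A2 and THY1. SLC1A3, a glutamate carrier of astrocytes, had a mean of 690 in vehicle and 359 at the medium dose.

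Of 14082 genes tested, 537 were differentially expressed (3.81%), with 329 higher at the medium dose (2.34%) and 208 lower (1.48%). Genes were called differentially expressed (DEG) at a fold change over 1.5 and a p under 0.05 in the DESeq2 Wald test after Benjamini-Hochberg adjustment, and "rose" and "fell" are used below for DEGs only. The rises were the larger changes. Among the higher DEGs 118 had a log2 fold change over 1 and 19 one over 2, whereas 43 of the lower DEGs were under -1 and 0 under -2. The median log2 fold change was 0.85 for the higher and -0.78 for the lower DEGs, and the median over all genes with a mean count of at least 10 was -0.00. In 532 of the 537 DEGs the 3 medium dose libraries did not overlap with the 3 vehicle libraries, and 50.3% of all tested genes had no such overlap. At an adjusted p alone 4157 genes differed, so the fold threshold set most of the count. An unadjusted p under 0.05 in the Wald test was met by 5414 of the 14082 tested genes. These values over all tested genes are the background for the counts in the gene lists below.

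**Figure D1:**
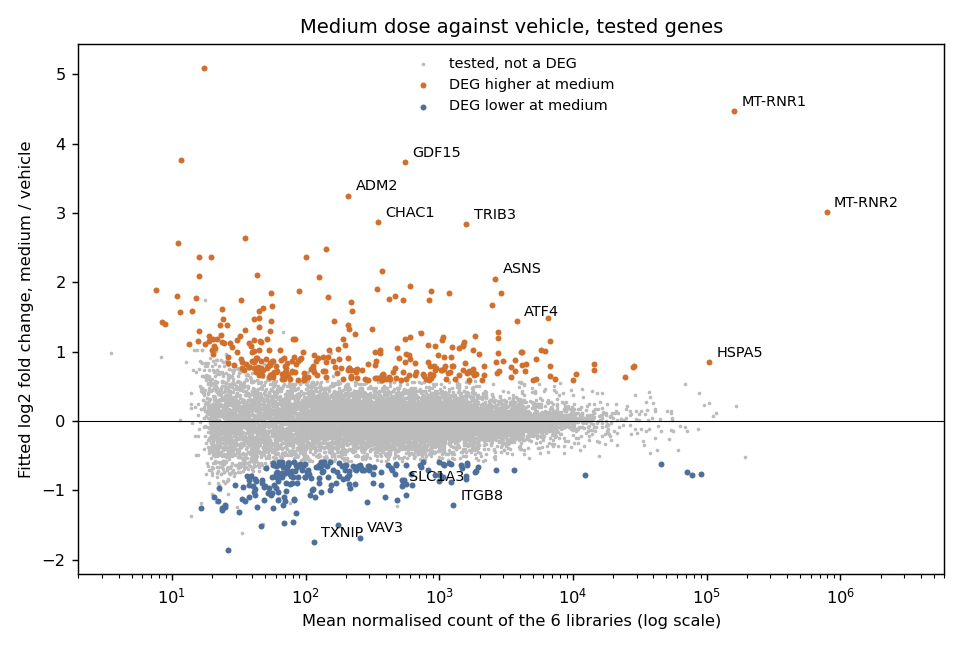
Fitted log2 fold change (medium dose over vehicle) against the mean normalised count of the 6 libraries on a log axis, one point a tested gene, with the 329 higher DEGs in orange and the 208 lower DEGs in blue. The highest points are rises, among them MT-RNR1 at 4.47 and GDF15 at 3.73, while TXNIP at -1.75 lies among the lowest.

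The largest rise among well-measured nuclear genes was that of GDF15, a secreted stress cytokine (ENSG00000130513, chromosome 19, 18374731 to 18389176, plus strand). Its normalised counts were 63.5, 84.1 and 86.4 in the vehicle libraries and 983, 1025 and 1103 in the medium dose libraries. The lowest medium dose library thus lay far above the highest vehicle library, and the log2 fold change was 3.73 (SE 0.104, adjusted p = 1.25e-276). ADM2, which encodes a secreted peptide of the calcitonin family, held 30.7, 42.9 and 45.8 in vehicle and 345, 389 and 404 at the medium dose (log2 fold change 3.25, SE 0.163, adjusted p = 3.91e-86). In both genes the groups were far apart beside the spread of their replicates. CHAC1, an enzyme that breaks down glutathione, counted 88.1, 75.3 and 88.5 against 617, 578 and 638, a log2 fold change of 2.87 (SE 0.127, adjusted p = 7.34e-111). TRIB3, a pseudokinase that acts in ATF4-CHOP signalling, moved from 438, 345 and 398 to 2695, 2853 and 2833 (log2 fold change 2.84, SE 0.0571).

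Further large rises fell on genes of metabolism, calcium handling and signalling. HKDC1, a hexokinase-like protein, held 36.9, 53.4 and 37.5 in vehicle and 225, 253 and 240 at the medium dose (log2 fold change 2.48, SE 0.159, adjusted p = 2.35e-52). ATP2A3, a calcium pump of the endoplasmic reticulum, held 27.7, 31.5 and 39.5 against 154, 171 and 179 (2.36, SE 0.194, adjusted p = 6.82e-32). Both pairs of triplets were well apart. NUPR1, a small stress-induced chromatin protein, had a log2 fold change of 2.16, the small GTPase gene RAB39B one of 2.07 and the salt-inducible kinase gene SIK1 one of 1.95, each with no overlap between the groups.

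**Figure D2:**
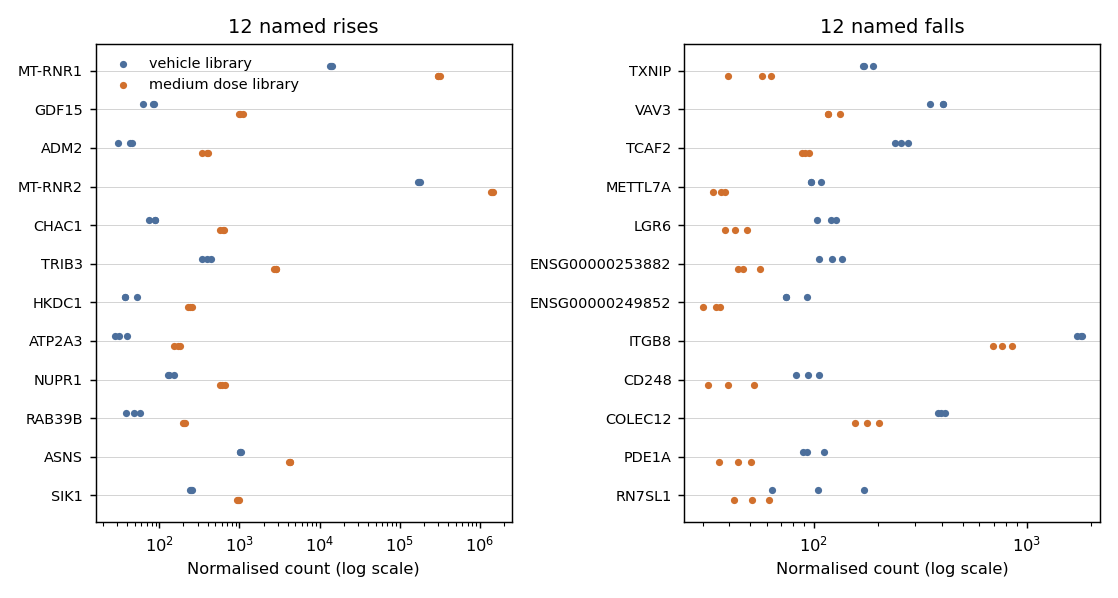
Normalised count (log axis) of each vehicle library (blue) and each medium dose library (orange) for the 12 largest rises and the 12 largest falls among DEGs with a mean count of at least 50 and no overlap. Replicates sit close together beside the gap between the groups for most genes, and RN7SL1 is the exception, with vehicle libraries spread from 63.5 to 172.

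The falls were smaller. TXNIP, an inhibitor of thioredoxin and of glucose uptake (ENSG00000265972, chromosome 1, 145992435 to 145996579, minus strand), held 190, 172 and 171 in vehicle and 62.6, 56.8 and 39.6 at the medium dose, a log2 fold change of -1.75 (SE 0.199, adjusted p = 4.91e-17). VAV3, an exchange factor for small GTPases, held 405, 406 and 352 against 132, 116 and 116 (-1.68, SE 0.131, adjusted p = 1e-35). In both genes every medium dose library lay below every vehicle library, and those of TXNIP were spread from 39.6 to 62.6. TCAF2, a regulator of TRPM8 channels (-1.50), METTL7A, a methyltransferase-like membrane protein (-1.47), and LGR6, a receptor for R-spondins (-1.45), followed. ITGB8, an integrin subunit that activates latent TGF-β, counted 1812, 1731 and 1804 against 851, 763 and 695 (-1.21, SE 0.0770, adjusted p = 9.37e-54). CD248 (endosialin), the scavenger receptor COLEC12 and the phosphodiesterase PDE1A fell by 1.21, 1.17 and 1.16 on the log2 scale. ENSG00000253882, a transcribed pseudogene, and ENSG00000249852, a transcript of uncertain status, were also among the 12 largest falls, at -1.32 and -1.25. RN7SL1, the RNA of the signal recognition particle, had a log2 fold change of -1.14 (SE 0.355, adjusted p = 0.00653), and its call was lost without medium dose replicate 1 or 3 or without vehicle replicate 2. Its sequence is nearly shared by other 7SL copies, so its counts are uncertain.

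Many transcription factors and regulators of the ATF4-CHOP arm were higher at the medium dose. Of 24 tested members 13 rose and 0 fell (54.2% called, beside 3.81% of all tested genes). The median log2 fold change was 0.89, beside -0.00 over all genes. The 13 include CHAC1 and HERPUD1, which are not transcription factors. CHAC1 is counted again under amino acid synthesis and HERPUD1 under endoplasmic reticulum chaperones and degradation factors. ATF4 itself, the central factor of the response, held 2092, 2024 and 2060 in vehicle and 5380, 5590 and 5744 at the medium dose (log2 fold change 1.44, SE 0.0378). DDIT3, which encodes CHOP, held 505, 481 and 558 against 1977, 1820 and 1760 (1.85, SE 0.0664, adjusted p = 1.11e-167). Every medium dose library exceeded every vehicle library in both genes, and 31.6% of the exon bases of DDIT3 overlap a gene on the other strand. SESN2, a sensor of leucine that restrains mTORC1, had a log2 fold change of 1.88, ATF3, a partner and feedback regulator of ATF4, 1.87, and JDP2 1.33. DDIT4, an inhibitor of mTORC1, followed at 1.20, CEBPG, a dimer partner of ATF4, at 1.10 and PPP1R15A, the phosphatase subunit that reverses eIF2α phosphorylation, at 1.06. CEBPB was the weakest call, with 577, 725 and 791 in vehicle and 1341, 954 and 1168 at the medium dose (0.73, SE 0.163, adjusted p = 7.77e-05).

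The kinases that start the response were not among the DEGs. The log2 fold changes of EIF2AK1, EIF2AK2, EIF2AK3 and EIF2AK4 were 0.10, 0.02, -0.02 and 0.16. ATF5 was at -0.04 and ATF6 at 0.26. XBP1, the factor of the IRE1 arm of the unfolded protein response, was at 0.54, under the fold threshold.

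Enzymes of serine, one-carbon, asparagine, proline and cysteine synthesis rose in a similar share. Of 23 tested members 14 rose and 0 fell (60.9% called, beside 3.81% of all tested genes), with a median log2 fold change of 0.80. The 14 include CHAC1, which breaks down glutathione and is also counted in the ATF4-CHOP list. ASNS, asparagine synthetase, held 1031, 1028 and 1004 in vehicle and 4139, 4227 and 4324 at the medium dose (2.05, SE 0.0414). CBS, which makes cystathionine from homocysteine and serine, held 142, 137 and 156 against 507, 507 and 615 (1.91, SE 0.122, adjusted p = 8.94e-53). The serine pathway was represented along its length, with PHGDH, its first enzyme, at 1.17, PSAT1, the second, at 1.85, and PSPH, the last, at 0.46 and not a DEG. PSAT1 held 1257, 1292 and 1202 in vehicle and 4353, 4737 and 4415 at the medium dose. The mitochondrial one-carbon enzymes ALDH1L2, MTHFD2, SHMT2 and MTHFD1L rose by 1.75, 0.98, 0.72 and 0.61. Their cytosolic counterparts SHMT1 and MTHFD1 were at -0.21 and -0.08. PCK2, the mitochondrial phosphoenolpyruvate carboxykinase, rose by 1.74 and CTH, which releases cysteine from cystathionine, by 1.26. GOT1, GPT2 and PYCR1 rose by between 0.80 and 0.95. GLUL, which makes glutamine, was at -0.31 and was not a DEG.

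Amino acid transporters split. Of 21 tested 7 rose and 2 fell (42.9% called, beside 3.81% of all tested genes), with a median of 0.13. SLC7A5, the light chain of the LAT1 carrier of large neutral amino acids, held 3500, 3336 and 3432 in vehicle and 9118, 9717 and 9727 at the medium dose (1.48, SE 0.0402, adjusted p = 1.2e-292). Its heavy chain SLC3A2 rose by 0.81, from 3009, 3009 and 3012 to 5424, 5232 and 5150. The glycine carrier SLC6A9 had a log2 fold change of 1.21, the neutral amino acid carrier SLC1A4 1.08 and the cystine carrier SLC7A11 0.99. SLC38A1 and SLC1A5, which carry glutamine, rose by 0.99 and 0.61. SLC1A3, the glial glutamate carrier, fell from 671, 685 and 714 to 358, 377 and 341 (-0.94, SE 0.0887, adjusted p = 1.36e-24). SLC7A8, the light chain of LAT2, fell by 0.61 on the log2 scale.

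Among the enzymes that charge tRNAs the cytosolic and mitochondrial sets were counted separately. Of 20 cytosolic synthetases 9 rose and 0 fell (median 0.55), and of 17 mitochondrial synthetases 0 were DEGs (median 0.09), with 6 at an unadjusted p under 0.05. The share called was 45% of the cytosolic list, beside 3.81% of all tested genes. edgeR gave the same counts of 9 and 0. AARS1 held 3760, 3910 and 3779 in vehicle and 7651, 7693 and 7875 at the medium dose (1.02, SE 0.0280, adjusted p = 1.29e-286), and GARS1, which charges both cytosolic and mitochondrial tRNA, held 4087, 4198 and 3983 against 7874, 8381 and 8458 (1.01, SE 0.0365). The groups were well apart in both genes. YARS1, WARS1, SARS1, MARS1, CARS1, IARS1 and TARS1 rose by between 0.61 and 0.82. NARS1, EPRS1 and LARS1 were at 0.55, 0.54 and 0.46, under the fold threshold. VARS1, KARS1, FARSA, FARSB, RARS1, QARS1 and HARS1 lay between -0.11 and 0.09.

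ATF4 and its C/EBP partners are known to bind a composite C/EBP-ATF response element. The letters TGATGNAAN of this element were looked for on both strands of the RefSeq promoter windows of GRCh38.p14, which reach from 250 bases before to 50 bases after the annotated start. In the 5 lists of ATF4-CHOP factors, amino acid synthesis, amino acid transport, cytosolic synthetases and secreted stress factors, 18 of 37 risen members with a window held a match (48.6%), beside 3 of 42 tested members that had not risen (7.14%). Over all windows of 300 bases 1268 of 35116 held one (3.61%), and over the tested genes 283 of 10601 (2.67%). Of the synthetases 6 of 8 risen members and 1 of 8 others had a match. A match was in the window of 5 of 12 risen members of the first list and of 0 of 9 others. The 5 were the factors ATF3, CEBPG and JDP2 together with CHAC1 and HERPUD1, which are not transcription factors. The 3 matches among members that had not risen were those of NARS1 (0.55), SLC7A1 (0.34) and SLC1A3, which fell. Among all higher DEGs 27 of 226 windows had a match (11.9%), and among lower DEGs 6 of 144 (4.17%). A match is a run of letters and not a measured binding site, and the lists had been chosen with the results known.

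The windows of 6 risen genes with a match are printed to show where in each promoter the element lies, from 5′ to 3′ on the gene's strand, with the match in capitals.
CHAC1: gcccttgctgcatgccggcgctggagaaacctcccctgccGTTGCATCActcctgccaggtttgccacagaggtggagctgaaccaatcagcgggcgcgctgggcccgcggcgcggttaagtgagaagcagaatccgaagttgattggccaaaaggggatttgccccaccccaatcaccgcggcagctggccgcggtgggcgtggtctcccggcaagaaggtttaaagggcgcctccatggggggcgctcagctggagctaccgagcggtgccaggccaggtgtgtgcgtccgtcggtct
ASNS: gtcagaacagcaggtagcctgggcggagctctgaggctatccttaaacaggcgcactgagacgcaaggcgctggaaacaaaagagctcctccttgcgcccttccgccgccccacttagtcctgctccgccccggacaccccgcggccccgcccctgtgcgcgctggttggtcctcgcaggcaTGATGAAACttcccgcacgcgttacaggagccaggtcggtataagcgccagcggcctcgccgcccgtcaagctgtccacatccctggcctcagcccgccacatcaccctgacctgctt
HERPUD1: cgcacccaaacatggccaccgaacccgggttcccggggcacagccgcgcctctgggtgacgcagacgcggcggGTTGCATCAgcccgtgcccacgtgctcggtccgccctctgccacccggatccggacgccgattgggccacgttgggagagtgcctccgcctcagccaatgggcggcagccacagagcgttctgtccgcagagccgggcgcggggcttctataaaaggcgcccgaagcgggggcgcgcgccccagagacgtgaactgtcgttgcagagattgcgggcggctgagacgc
SLC1A4: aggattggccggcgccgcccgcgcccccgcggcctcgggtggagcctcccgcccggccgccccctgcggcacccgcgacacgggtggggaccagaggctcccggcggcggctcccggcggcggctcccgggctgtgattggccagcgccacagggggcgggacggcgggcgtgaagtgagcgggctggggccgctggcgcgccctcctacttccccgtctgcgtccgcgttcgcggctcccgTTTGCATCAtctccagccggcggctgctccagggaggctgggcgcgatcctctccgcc
AARS1: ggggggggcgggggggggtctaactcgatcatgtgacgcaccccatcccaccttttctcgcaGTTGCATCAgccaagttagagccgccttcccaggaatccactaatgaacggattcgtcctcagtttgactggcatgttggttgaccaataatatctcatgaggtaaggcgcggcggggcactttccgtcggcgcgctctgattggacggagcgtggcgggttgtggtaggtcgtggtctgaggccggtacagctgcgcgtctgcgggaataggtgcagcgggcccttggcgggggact
GARS1: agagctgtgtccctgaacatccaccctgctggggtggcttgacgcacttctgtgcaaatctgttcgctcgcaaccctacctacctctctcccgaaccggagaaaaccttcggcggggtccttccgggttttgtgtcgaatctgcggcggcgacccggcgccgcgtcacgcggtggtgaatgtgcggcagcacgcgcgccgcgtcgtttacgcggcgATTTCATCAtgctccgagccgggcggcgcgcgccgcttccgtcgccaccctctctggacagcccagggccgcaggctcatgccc
The CHAC1 window is chr15:40953221-40953520 on the plus strand, and its match begins 210 bases before the start. That of ASNS is chr7:97872359-97872658 on the minus strand, with the match 68 bases before the start and in the forward sense, TGATGAAAC. HERPUD1 (chr16:56931892-56932191, plus strand) and AARS1 (chr16:70289457-70289756, minus strand) hold the same letters as CHAC1, GTTGCATCA, beginning 177 and 188 bases before the start. The SLC1A4 match (chr2:64989149-64989448, plus strand) begins 8 bases before the start and spans it, and the GARS1 match (chr7:30594628-30594927, plus strand) begins 34 bases before it.

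Chaperones and other stress systems gave fewer calls than the lists above. The shares called were 11.5% of the endoplasmic reticulum and 12.5% of the mitochondrial list, beside 3.81% of all tested genes. Of 26 endoplasmic reticulum chaperones and degradation factors 3 rose and 0 fell, with a median of 0.29. HSPA5, the abundant chaperone BiP, held 74724, 73372 and 74842 in vehicle and 135401, 135585 and 131660 at the medium dose (0.85, SE 0.0222). HERPUD1, a component of the degradation machinery, rose by 1.28 and DNAJB9, a co-chaperone of HSPA5, by 0.67. HSP90B1, CALR, PDIA4, HYOU1 and MANF lay between 0.35 and 0.49 and were not DEGs, and 23 of the 26 values were positive. Of 16 mitochondrial chaperones and proteases LONP1 (0.69) and HSPA9 (0.59) rose, and HSPD1 and HSPE1 were at -0.06 and 0.02. The HSPA9 call stood just over the fold threshold and was lost without medium dose replicate 1 or vehicle replicate 2. Of 17 cytosolic heat shock genes 0 were DEGs in DESeq2 and 1 in edgeR, with a median of -0.12, while 14 had an unadjusted p under 0.05 and 15 a negative value.

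**Figure D3:**
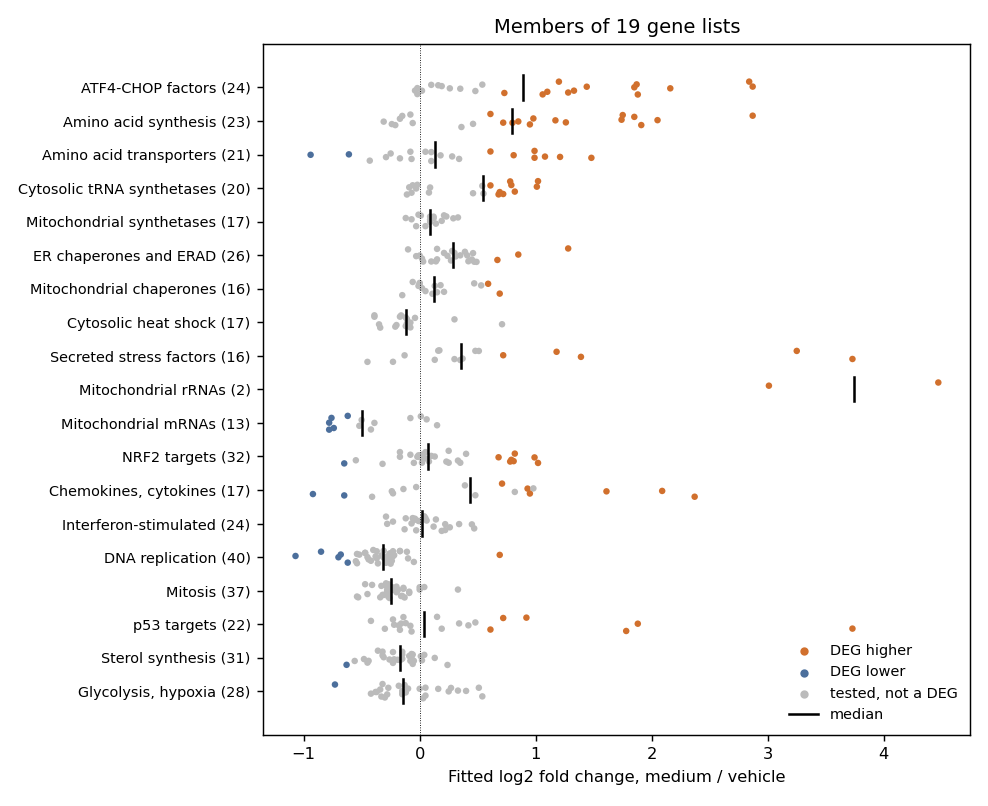
Fitted log2 fold change (medium dose over vehicle) of every tested member of 19 gene lists, with the number tested in brackets, DEGs in orange (higher) or blue (lower) and the median of members with a mean count of at least 10 as a black line. The medians of the ATF4-CHOP factors (0.89) and of amino acid synthesis (0.80) lie right of nearly all others, and those of the mitochondrial mRNAs (-0.50) and of DNA replication (-0.32) lie left of 0.

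Secreted stress factors were few but large. Of 16 tested 5 rose and 0 fell, with a median of 0.36. Beside GDF15 and ADM2 these included INHBE, an activin subunit (13.3, 11.4 and 13.5 against 32.5, 32.6 and 34.9), and the death receptor TNFRSF10B (0.72). INHBE stood at 1.39 (SE 0.373, adjusted p = 0.00127). Without medium dose replicate 2 independent filtering left it untested, with a log2 fold change of 1.41. VEGFA (0.51), LIF (0.48), STC2 (0.35), HBEGF (0.16) and BDNF (0.13) were not DEGs.

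The mitochondrial rRNAs were the most changed transcripts of the mitochondrial DNA. MT-RNR1, the 12S rRNA (ENSG00000211459, chromosome M, 648 to 1601, plus strand), held 13706, 13488 and 14351 in vehicle and 297552, 319246 and 303809 at the medium dose, a log2 fold change of 4.47 (SE 0.0518). MT-RNR2, the 16S rRNA (chromosome M, 1671 to 3229, plus strand), held 173229, 170590 and 180638 against 1399889, 1450734 and 1363666 (3.01, SE 0.0464). In both groups the replicates were close. Together these rRNAs took 0.922%, 0.912% and 0.960% of all counts in the vehicle libraries and 7.76%, 8.05% and 7.67% at the medium dose. The mean share was 0.932% ± 0.0251 (SD, n = 3) against 7.83% ± 0.199 (SD, n = 3), 8.40 times as high, and the exact two-sided permutation p was 0.1, the smallest that 3 against 3 libraries allow. Whether poly(A) selection was used is not given in the sources used here, and rRNA copy number and the share of rRNA carrying a poly(A) tail cannot be told apart in these counts.

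The mitochondrial mRNAs went the other way. Their share of all counts was 4.18%, 4.11% and 4.33% in vehicle and 2.80%, 2.79% and 2.89% at the medium dose, which is 4.21% ± 0.109 against 2.83% ± 0.0580 (SD, n = 3, exact two-sided permutation p = 0.1, the smallest possible). The groups did not overlap. Of 13 mRNAs 5 fell and 0 rose (38.5% called, beside 3.81% of all tested genes). MT-CO2, a subunit of cytochrome oxidase, held 97613, 97553 and 98461 in vehicle and 55329, 54890 and 61102 at the medium dose (-0.78, SE 0.0532, adjusted p = 2.97e-46). MT-CO3, MT-ATP6, MT-ND4L and MT-ND4 had log2 fold changes of -0.74, -0.62, -0.78 and -0.76. MT-CO1 (-0.52), MT-ND3 (-0.50) and MT-ND5 (-0.42) passed the adjusted p but not the fold threshold, and MT-ATP8 was at -0.39 (adjusted p = 0.0878).

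The change varied with the place of the gene. MT-ND1 and MT-ND2, which follow the rRNAs directly on the heavy-strand transcript, were at 0.15 (SE 0.137, adjusted p = 0.437) and 0.01 (SE 0.139, adjusted p = 0.961). The next 8 genes in order on that strand, from MT-CO1 to MT-ND4, lay between -0.78 and -0.39. MT-CYB, the last, was at -0.08 (SE 0.0558, adjusted p = 0.328) and MT-ND6, the mRNA of the light strand, at 0.06 (SE 0.0482, adjusted p = 0.379). MT-ATP8 and MT-ATP6 overlap, as do MT-ND4L and MT-ND4, so reads on the shared bases cannot be assigned to one of them with certainty. Of 26 nuclear genes for mitochondrial transcription, RNA processing and translation 0 were DEGs in DESeq2 and edgeR, with a median of -0.03 and 10 at an unadjusted p under 0.05. A fit without the mitochondrial genes gave 531 DEGs, 530 of them among the 537.

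**Figure D4:**
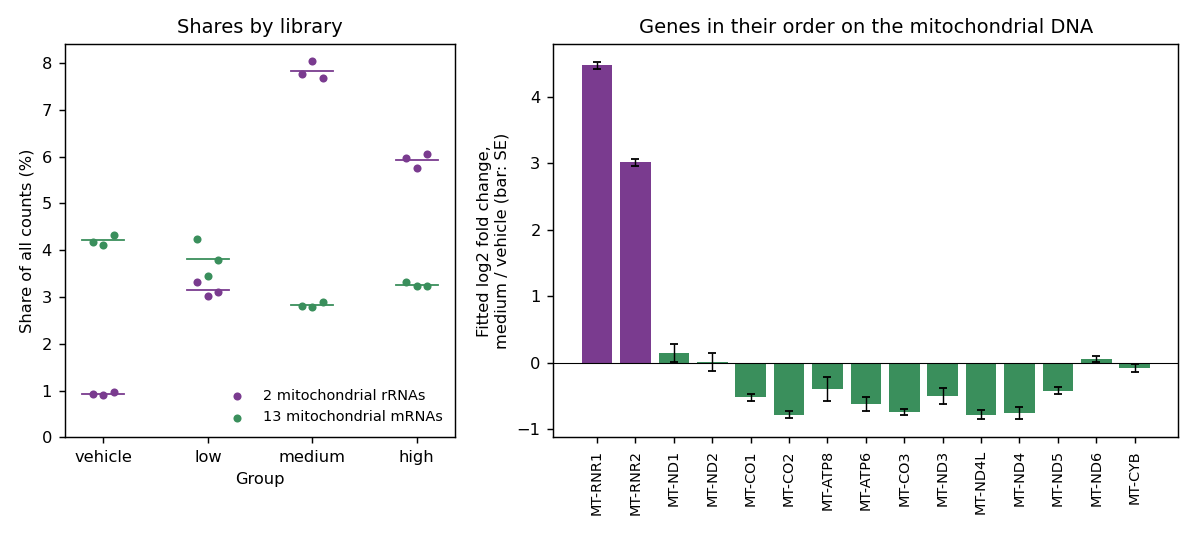
Left, share of all counts (%) taken by the 2 mitochondrial rRNAs and the 13 mitochondrial mRNAs in each library of the 4 groups, with group means as lines. Right, fitted log2 fold change (medium dose over vehicle) with its SE for each gene in its order on the mitochondrial DNA. The rRNA share is highest at the medium dose (7.83%) and the mRNA share lowest there (2.83%), and on the right only the rRNA bars rise far above 0.

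Genes of the antioxidant factor NRF2 were called in part. Of 32 tested targets 7 rose and 1 fell (25% called, beside 3.81% of all tested genes), with a median of 0.07. Heme oxygenase HMOX1 held 1177, 1155 and 1198 in vehicle and 2241, 2478 and 2407 at the medium dose (1.02, SE 0.0483, adjusted p = 2.11e-95). SQSTM1, an autophagy receptor, had a log2 fold change of 0.82, OSGIN1 0.81, FTH1 0.79 and FTL 0.78, the ferritin chains, and GCLC, the catalytic subunit of glutathione synthesis, 0.68. SLC7A11 belongs to this list as well as to the transporters. NQO1 (0.25), TXNRD1 (0.25), SRXN1 (0.35) and GCLM (-0.05), which are widely used NRF2 reporters, were not DEGs, and AKR1C3 fell from 322, 279 and 305 to 214, 208 and 155 (-0.65, SE 0.126, adjusted p = 3.2e-06). For FTH1 63.2% and for SQSTM1 22.4% of the exon bases overlap genes on the other strand.

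Chemokines and cytokines moved in both directions. Of 17 tested 6 rose and 2 fell (47.1% called, beside 3.81% of all tested genes), with a median of 0.43. The neutrophil chemokine CXCL8 held 91.2, 104 and 107 in vehicle and 177, 219 and 177 at the medium dose (0.93, SE 0.127, adjusted p = 9.8e-12). IL6 held 82.0, 85.9 and 69.7 against 189, 148 and 125 (0.95, SE 0.162, adjusted p = 7.76e-08). CXCL2, at counts of 3.07, 9.64 and 6.24 against 24.3, 38.2 and 36.7, and CXCL3 and IL1A rose from low levels, and IL1B rose by 0.71. In a fit of the 6 libraries alone independent filtering left CXCL3 untested, with a log2 fold change of 2.10. The filter mean of the main fit also held the high dose libraries, where CXCL3 had a mean of 229. The monocyte chemokine CCL2 fell from 486, 438 and 511 to 274, 239 and 247 (-0.92, SE 0.120, adjusted p = 4.45e-13), and CXCL12 by 0.65 on the log2 scale. Of 15 genes of the NF-κB pathway ICAM1 (0.73) and RELB (0.63) rose (13.3% called), while NFKBIA was at -0.22 and TNFAIP3 at 0.13. Of 24 interferon-stimulated genes 0 were DEGs in DESeq2 and edgeR, with a median of 0.02 and 6 at an unadjusted p under 0.05.

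Proliferation genes shifted downward by small amounts. Of 40 DNA replication genes 5 fell and 1 rose (15% called, beside 3.81% of all tested genes). Of the 40 values 39 were negative, with a median of -0.32. RRM2, the regulated subunit of ribonucleotide reductase, held 4629, 4426 and 4349 in vehicle and 2734, 2831 and 2690 at the medium dose (-0.70, SE 0.0365, adjusted p = 3.98e-79). E2F2 was at -1.07, CCNE2 at -0.85, TYMS at -0.68 and FEN1 at -0.62. The gene that rose was E2F7, a repressor of the E2F programme, at 0.69. Of 37 mitosis genes 0 were DEGs in DESeq2 and edgeR, but 34 had a negative value, with a median of -0.25. An unadjusted p under 0.05 was met by 32 of them, beside 5414 of 14082 over all tested genes. MKI67, the Ki-67 antigen of cycling cells, was at -0.53.

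Of 22 p53 targets 6 rose and 0 fell (27.3% called, beside 3.81% of all tested genes), with a median of 0.04. The 6 were GDF15, SESN2, BBC3, GADD45A, TNFRSF10B and GADD45B, several of which ATF4 or CHOP also regulate. CDKN1A and MDM2, the most used p53 reporters, were at -0.18 and -0.14 and were not DEGs. Which factor raised the 6 genes was not tested. Of 13 BCL2 family genes BBC3, PMAIP1 (0.69) and BCL2 (0.76) rose and BMF (-0.90) fell (30.8% called). BBC3 rested on low counts, 10.2, 5.26 and 5.20 against 27.8, 21.4 and 21.7. Independent filtering left it untested without medium dose replicate 2 (log2 fold change 1.85) and in a fit of the 6 libraries alone (1.78). The filter mean of the main fit also held the high dose libraries, where BBC3 had a mean of 79.9.

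Further signalling lists held a few calls each. The shares called were 33.3% for YAP targets, 16% for AP-1 and ERK genes and 9.09% for BMP genes. They were 33.3% for aryl hydrocarbon receptor genes and 16.7% for clock genes, beside 3.81% of all tested genes. CCN1, a matricellular target of YAP, held 4058, 3923 and 4482 in vehicle and 9147, 9350 and 9267 at the medium dose (1.16, SE 0.0428, adjusted p = 4.31e-158), ANKRD1 and F3 rose by 0.98 and 0.63, and CCN4 fell by 0.91 on the log2 scale among 12 tested genes of that list. Of 25 AP-1 and ERK genes IER3, DUSP5, MYC and DUSP1 rose by between 0.59 and 0.87, the DUSP1 call being lost without medium dose replicate 2 or vehicle replicate 2 or 3, and FOS and EGR1 were not DEGs (-0.79 and -0.08). The BMP antagonist GREM1 held 314, 322 and 304 against 662, 623 and 660 (1.05, SE 0.0783), and KCP, a regulator of BMP signalling, 11.3, 10.5 and 7.29 against 64.9, 46.6 and 70.7. The aryl hydrocarbon receptor targets CYP1B1 and AHRR fell by 0.70 and 0.71 on the log2 scale, 2 of 6 tested. Of 18 clock genes NPAS2 (0.76) and NFIL3 (0.59) rose and HLF (-0.70) fell, and the NFIL3 call was lost for 4 of the 6 libraries when each was left out in turn.

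Of 31 tested sterol and fatty acid synthesis genes 1 was a DEG. The median over the 32 listed genes with a mean count of at least 10 was -0.17, and 5 of the 32 values were positive. Of 28 genes of glycolysis and hypoxia only EGLN3 was a DEG (-0.73), with a median of -0.14. Of 28 matrix genes COL3A1 fell (-0.62), a call that was lost without medium dose replicate 3 or vehicle replicate 2. Of 24 autophagy genes SQSTM1 alone rose. The shares called in these 4 lists were 3.23%, 3.57%, 3.57% and 4.17%, near the 3.81% of all tested genes. In the lists of 4 metallothioneins, 17 small nucleolar RNA host genes and 12 tubulins 0 members were DEGs in DESeq2 and edgeR, and 3, 7 and 7 had an unadjusted p under 0.05. Of 8 genes around TXNIP and glucose sensing HKDC1 rose and TXNIP and SLC2A12 fell, SLC2A12 not without vehicle replicate 3, and the TXNIP relatives ARRDC3 and ARRDC4 were at -0.14 and -0.33.

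Sodium channels are the best known targets of aconitine. The paper lists aconitine as ND in its extract and gives contents for benzoylmesaconine and benzoylaconitine. The genes of these channels were little expressed. Of 14 listed 6 were tested and 0 were DEGs in DESeq2 and edgeR, with 3 at an unadjusted p under 0.05. SCN8A was at 0.50, SCN9A at 0.38 and SCN3A at -0.19. Of 18 tested calcium channel, pump and store genes 0 were DEGs in DESeq2 and edgeR, with a median of -0.01 and 6 at an unadjusted p under 0.05, while ATP2A3, outside that list, was among the largest rises.

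Among glial, neuronal and mesenchymal markers all DESeq2 calls were falls, while edgeR also called 1 astrocyte and glioma gene higher. Of 13 tested astrocyte and glioma genes 3 fell, namely SLC1A3, PDGFRA (587, 611 and 563 against 354, 349 and 330, log2 fold change -0.77) and the intermediate filament NES (212, 227 and 204 against 130, 124 and 132, -0.74). The share called in this list was 23.1%, beside 3.81% of all tested genes. VIM (0.23), SOX9 (-0.23) and GJA1 (-0.12) were not DEGs. Of 8 neuronal markers 3 were tested. SNAP25 (-0.85) and NEFL (-0.80) fell and SYT1 was at 0.10, and the summed level of the list was between 1465 and 1515 in vehicle and between 1146 and 1192 at the medium dose. All 8 fibroblast markers were tested and had negative values, with PDGFRA as the DEG, and their sum was between 124528 and 128912 against between 90682 and 97814. Of 8 markers of microglia and macrophages 3 were tested, with log2 fold changes from -0.65 to 0.29. PTPRC, a leukocyte phosphatase, was the DEG at -0.65, a call lost without medium dose replicate 2. The summed level of this list was higher at the medium dose, between 3452 and 4025, beside between 3155 and 3319 in vehicle. The microglial genes AIF1, CX3CR1, P2RY12, TMEM119 and ITGAM had mean counts under 3 in both groups. Of 2 tested endothelial, 2 epithelial and 2 oligodendrocyte markers each 0 were DEGs in DESeq2 and edgeR, and 0, 1 and 2 had an unadjusted p under 0.05.

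The study built a brain system network of proteins, of which 1039 node names were used here. Of the 458 nodes tested 14 rose and 13 fell, a share of 5.90% beside 3.81% over all tested genes, and the median log2 fold change was -0.03. The rises included RAB39B (38.9, 57.8 and 48.9 against 196, 206 and 212), the inositol trisphosphate kinase ITPKA (87.1, 78.8 and 98.9 against 241, 245 and 228), SLC7A11, the serotonin receptor HTR1D (1.03) and the adenylate kinase AK5 (0.92). RPS10-NUDT3, a readthrough of 2 genes, was listed at 0, 0 and 3.12 in vehicle and at 48.7, 32.6 and 20.7 at the medium dose, and since its reads are shared with RPS10 and NUDT3 its value is uncertain. The falls included the GABA receptor subunit GABRQ (83.0, 74.5 and 66.6 against 52.2, 28.9 and 28.3), the apelin gene APLN (-0.92), the calcium sensor VSNL1 (-0.92), the adenosine receptor ADORA1 (-0.81), SLC1A3 and SNAP25. The VSNL1 call was lost whichever of the 6 libraries was left out and without independent filtering (adjusted p = 0.0783), and the APLN call for 4 of the 6. Without medium dose replicate 2 the filter left both genes untested.

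How far the medium dose stood from its neighbours was asked with direct tests. High and medium dose differed in 1679 of 16467 tested genes (10.2%) and medium and low dose in 273 of 14082 (1.94%). Of the 537 DEGs 325 also differed between high and medium dose, 245 between medium and low, and 178 in both tests. In 311 of the 325 the high dose lay further from vehicle, and in 14 it lay nearer to it. Since these tests share libraries with the main comparison, the values of single genes are given side by side. GDF15 had a mean of 151 at the low, 1037 at the medium and 8795 at the high dose, beside 78.0 in vehicle. CHAC1 had 135, 611 and 640 at the 3 doses, and its difference between high and medium dose was 0.07 (adjusted p = 0.625). VAV3 had 310 at the low and 29.1 at the high dose.

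Mitochondrial rRNA stood out among these profiles. Its share was 3.14% ± 0.164 at the low, 7.83% ± 0.199 at the medium and 5.93% ± 0.150 (SD, n = 3) at the high dose. Between high and medium dose MT-RNR2 differed by -0.45 on the log2 scale (adjusted p = 2.23e-21) and MT-RNR1 by -0.17 (adjusted p = 0.00356), both under the fold threshold. MT-ND1 and MT-ND2 had log2 fold changes of 0.75 and 0.70 at the low dose, beside 0.15 and 0.01 at the medium dose.

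In 5 genes the medium dose lay above or below both other doses in the direct tests. The hair keratin KRT81 held 2535, 2528 and 2710 in vehicle, 3170, 2869 and 2969 at the low, 4732, 4934 and 4629 at the medium and 2584, 2725 and 2732 at the high dose. Its level at the medium dose exceeded every other library, and ECM2, a matrix protein, had the same profile at lower counts (73.0, 73.6 and 70.7 at the medium dose, 34.8 to 56.1 elsewhere). TXNIP held 82.7, 96.9 and 83.7 at the low and 157, 141 and 109 at the high dose, and so was lowest at the medium dose. BCL2L11, the apoptosis factor BIM, held 117, 141 and 111 at the medium dose against a mean of 190 at the low and 247 at the high dose. It was not a DEG against vehicle (-0.58, SE 0.143, adjusted p = 0.000372). The fifth, ENSG00000283088, rested on medium dose counts of 3.48, 6.52 and 29.2 and was lost when medium dose replicate 1 or 2 was left out.

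**Figure D5:**
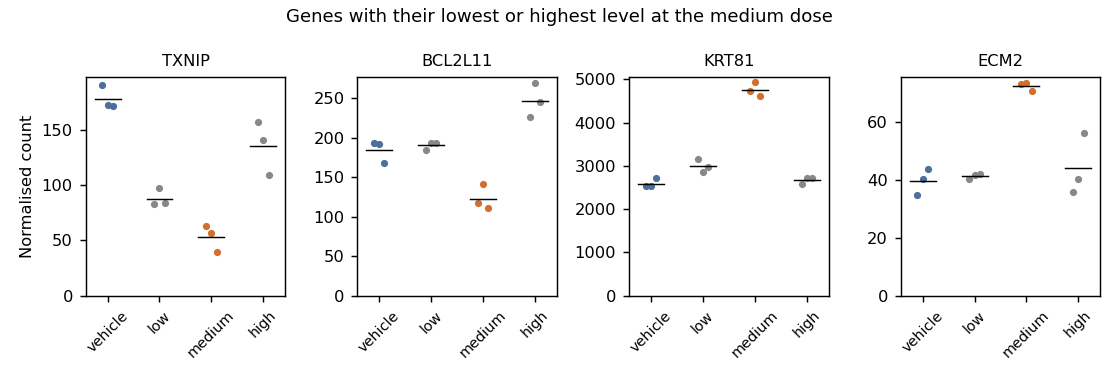
Normalised count of each library by group for TXNIP, BCL2L11, KRT81 and ECM2, with vehicle in blue, the medium dose in orange, the other doses in grey and group means as lines. TXNIP and BCL2L11 have their lowest level at the medium dose and KRT81 and ECM2 their highest.

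Further DEGs lay nearer vehicle at the high dose than at the medium dose. DDIT4L, a relative of DDIT4, fell at the medium dose from 329, 314 and 270 to 158, 171 and 157 and held 264, 260 and 239 at the high dose. The growth factor FGF1 and the non-coding transcripts KRT7-AS, MIR503HG and ACTA2-AS1 were likewise higher at the medium dose and nearer vehicle at the high dose, with medium dose log2 fold changes of 0.77, 0.73, 1.13 and 1.08. These 5 genes were chosen after their values were seen.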

How the data were processed

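RNA was sequenced in 12 libraries, of which 3 medium dose and 3 vehicle libraries are compared here. The authors trimmed reads with Trim Galore 0.6.5, aligned them with STAR 2.7.3a to GRCh38 and counted with RSEM 1.3.3 (versions per the labels), and the deposited table holds expected counts per gene with no normalization, which were rounded to whole numbers. RSEM shares reads that fit several genes among them. All 12 columns were matched through the sample descriptions. Symbols came from GENCODE for 93.2% of 60675 IDs.

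DESeq2 1.42.0 (R 4.3.3, Wald test, 12 libraries, group as the only term) gave log2 fold changes with SE. Independent filtering at 0.05 left genes with mean counts over the 12 libraries under 18.3 untested. At this depth the median SE was 0.07 for genes with a mean count of at least 100, and counting error is only part of it. Normalised counts are divided by size factors. Fold changes are on the fitted log2 scale. Mitochondrial shares were tested by exact permutation. edgeR 4.0.16 and further alternatives were run, and the fit was tested on simulated data. Named genes were the 12 largest rises and falls with a mean count of at least 50 and no overlap, DEGs and placed members of each list, preferring the 4 largest, all mitochondrial genes, up to 5 genes each way outside both other doses and up to 6 network nodes each way. Members and lists were chosen with earlier results of these data known. Some genes are not reported here.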

Additional observations from a re-analysis of the deposited data

Results flagged for a closer look

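These 5 genes were singled out because their response to the medium dose differed from that to the high dose in a direct test of the difference, and did so against the common order of the doses. TXNIP, BCL2L11 and ENSG00000283088 were lowest at the medium dose, with log2 fold changes of high against medium dose of 1.36, 1.01 and 1.45, and the last of these rested on 2 of the 3 medium dose libraries (3.48, 6.52 and 29.2). KRT81 and ECM2 were highest there (-0.83 and -0.70). KRT81 stayed outside both other doses in all 6 alternatives tried, ECM2, BCL2L11 and TXNIP in 5 of 6 and ENSG00000283088 in 3 of 6. The reason for these profiles was not tested.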

How the results depend on the processing

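The count of 537 DEGs (329 higher, 208 lower) became 809 (340 lower) with edgeR, 813 (350 lower) with edgeR and RLE scaling, 114 (96 higher, 18 lower) with a Wald test against the fold threshold and 4157 (2121 higher, 2036 lower) at an adjusted p alone. The share of higher DEGs was 61.3% in DESeq2, 58.0% in edgeR and 84.2% in the test against the fold threshold. edgeR shared 531 of the 537 DEGs. Leaving out 1 library gave between 452 and 511 DEGs, with between 273 and 314 higher and between 178 and 197 lower. The replicate block gave 488 DEGs, 478 of them shared with the 537. Same-numbered medium and vehicle libraries had correlations of their deviations between -0.0671 and -0.0492, so that the numbers did not pair the libraries. Of the single genes named, the block ended the call of VSNL1 (adjusted p = 0.0903). Between medium and low dose these correlations were 0.129, 0.0979 and 0.177, and each medium dose library correlated best with the low dose library of its own number, a hint from the data and not from the design. The block gave 235 genes there in place of 273.

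edgeR called 427 genes between medium and low dose in place of 273. Without 1 medium dose library the count between high and medium dose lay between 1518 and 1557 and that between medium and low dose between 221 and 265. Genes outside both other doses numbered 5, 11 with edgeR, and between 3 and 8 without 1 medium dose library, with 8 without replicate 1 and 3 without replicate 2. As a share of all mitochondrial counts, the difference between medium dose and vehicle was 55.3 percentage points for the rRNAs and -55.3 for the mRNAs, in place of 6.89 and -1.38, by construction of a smaller denominator. Without 1 library these differences were between 6.78 and 6.97 and between -1.42 and -1.32. The brain network held 21 higher and 22 lower DEGs in edgeR in place of 14 and 13. edgeR and the block left the number of DEGs as it was in the lists for ATF4-CHOP factors, amino acid synthesis and transport, synthetases, endoplasmic reticulum and mitochondrial chaperones, NRF2, mitochondrial mRNAs and replication.

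Of the 100 DEGs that the rule for named genes chose, 44 kept their call in every alternative, 54 lost it in the test against the fold threshold and 12 without 1 library, and 0 changed direction. A gene that independent filtering left untested counts here as a lost call. Independent filtering, set for each comparison, left genes with means over the 12 libraries under 18.3 untested against vehicle. For high against medium dose the threshold was 5.77.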

Other observations

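The gene families in this paragraph were chosen after their values were seen. Of 28 tested clustered protocadherins, cell surface adhesion proteins encoded in 3 tandem arrays, 6 fell and 0 rose (background 1.48% lower), 26 of 28 had negative log2 fold changes and the median was -0.45. PCDHGB3 held 90.2, 99.0 and 94.7 in vehicle and 41.7, 49.4 and 42.4 at the medium dose (-1.09, SE 0.260, adjusted p = 2.37e-04). PCDHGC4 held 209, 187 and 209 against 108, 127 and 84.8 (-0.92, SE 0.184, adjusted p = 6.36e-06), and PCDHB9, PCDHB7, PCDHA10 and PCDHGA6 lay between -0.72 and -0.65. The groups did not overlap in these 6 genes. The alpha and gamma members share their last exons and the beta members are close copies, so the division of reads among them is uncertain.

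Of 10 tested keratins 4 rose and 0 fell (background 2.34% higher). Beside KRT81 these were KRT80, with 944, 870 and 911 in vehicle and 1440, 1590 and 1687 at the medium dose (0.80, SE 0.0618, adjusted p = 7.37e-36), KRT86 (0.78), a close copy of KRT81, and KRT75. KRT75 rested on low counts, with a mean of 5.07 in vehicle and 26.9 at the medium dose. Its filter mean in the main fit also held the high dose libraries, where KRT75 had a mean of 97. Of 3 tested pregnancy-specific glycoproteins PSG1 (44.1, 46.4 and 47.9 against 77.7, 90.4 and 85.7) and PSG5 (0.82) rose. These genes are near-identical copies of each other and their values are uncertain. Of 30 tested HOX genes HOXB9 alone was a DEG in DESeq2 (3 genes in edgeR), beside a background of 3.81% called either way. HOXB9 held 98.4, 112 and 82.2 in vehicle and 188, 208 and 205 at the medium dose (1.03, SE 0.149, adjusted p = 1.08e-10). The median of the family was -0.07. Of 78 tested cytosolic ribosomal protein genes 0 were DEGs in DESeq2 and edgeR, with a median of 0.04 and 25 at an unadjusted p under 0.05.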
